A study of Mus musculus with 27 samples.

Results

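The intestine of mice 6 h after 15 Gy of gamma irradiation was compared with that of unirradiated mice, using 6 of the 27 RNA libraries of the series, 3 on each side. The 6 libraries were chosen by their labels alone. All came from the intestine of wildtype male C57BL/6 mice aged 6 to 8 weeks. The irradiated group received 15 Gy of 60Co gamma rays at 72 R/min and was sampled at 6 h, and the control group is labelled as having had no treatment. Neither group received CBLB502, the flagellin-derived protein given in other arms of the series. The labels do not say which stretch of intestine was taken, whether a library came from 1 mouse or from several, or at what time of day tissue was collected. P-values therefore measure a spread between libraries, which may be technical. In the edgeR fits that spread was estimated from all 27 libraries of the series, unless a fit of fewer libraries is named.

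Ionizing radiation breaks DNA, and the kinases that sense the breaks stabilise the transcription factor p53. In the gut, p53 is known to switch on genes of cell-cycle arrest, survival signalling and apoptosis, and the dividing cells of the crypts are the ones that die first. The villi are lined by mature enterocytes, which no longer divide and which carry most of the digestive and absorptive machinery of the tissue, with goblet, tuft and enteroendocrine cells between them.

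A level in CPM is a gene's count in 1 M counts after TMM scaling, and changes are log2 fold changes ± SE of 15 Gy at 6 h over control from edgeR's quasi-likelihood test. A gene was called when its Benjamini-Hochberg adjusted p was under 0.05 among 11118 tested genes, and "rose" and "fell" are used of called genes. Because these are bulk samples, fewer cells of a type and less RNA per cell cannot be told apart.

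The control libraries held 75.5, 86.9 and 78.3 M counts and the irradiated ones 83.6, 87.1 and 80.5 M. A count was found for 19464 to 20098 genes in control and for 17760 to 18516 at 15 Gy. Mitochondrially encoded genes took 11.8, 12.4 and 17.8% of counts in control and 9.03, 6.83 and 4.59% at 15 Gy, so the groups did not overlap (difference -7.19 percentage points; exact two-sided permutation test, p = 0.1, the smallest that 3 against 3 libraries allow). The labelled tissue was checked against its markers. The 33 brush-border genes of enterocytes summed to 80319.7 to 101778 CPM in control and 95319.8 to 107835 CPM at 15 Gy, and none of them was at 0. Of 33 exocrine pancreas genes, 21 had no count in either group, among them the amylase gene Amy2a3, and the list summed to 3278 to 5751 CPM in control and 4902 to 9479.7 CPM at 15 Gy. Smooth muscle genes (20) summed to 302 to 351 CPM in control and 246 to 325 CPM at 15 Gy. Fibroblast and collagen genes (30) summed to 319 to 336 CPM and 594 to 664 CPM, ranges that did not overlap. Only 7 of the 30 were tested, and 1 rose and 0 fell in each fit (14.3% called as counted against 28.96% of all genes tested). Their median log2 fold change was 0.16 as counted, and 3 of the 30 had no count in control against 6 at 15 Gy. Col1a1, a fibrillar collagen, was at 0.261, 0.0798 and 0.489 CPM in control against 0.428, 0.294 and 0.0831 CPM at 15 Gy.

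RNA of spermatids, germ cells of the testis, was present in the control libraries. Over 8 spermatid genes (Prm1, Prm2, Tnp1, Tnp2, Ldhc, Odf1, Smcp and Akap4, chosen after their values were seen) the control libraries summed to 13.6, 14.9 and 15.1 CPM, and the libraries of 15 Gy at 6 h to 0.104, 0.0267 and 0.111 CPM. Prm2, the protamine that packs sperm DNA, had 757 counts over the 3 control libraries and none over the 3 irradiated ones, which makes it at least 272-fold lower at 15 Gy when 3 counts over the group are taken as the floor. Of the other libraries of the series, those of 6 Gy at 6 h ran from 0 to 14.1 CPM and those of 15 Gy at 24 h from 0 to 0.62 CPM. The share of these genes in any other result was not tested, and they belong to no other list described below.

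The irradiated libraries differed from the controls in base composition. Genes were ordered by the GC content of their longest annotated transcript, and in each library the median centred log2 CPM of the GC-poorest decile was taken from that of the GC-richest decile. In the 3 libraries of 15 Gy at 6 h this difference was 1.00, 0.99 and 1.25. In the control libraries it was -0.09, -0.17 and -0.17, and over the 24 libraries outside the group it ran from -0.32 to 0.15. The 3 irradiated libraries thus stood apart from every other library of the series, and against control the difference was 1.22 (exact two-sided permutation test, p = 0.1, the smallest possible).

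The same gradient ran through the fold changes of 15 Gy at 6 h against control. In the GC-poorest decile (transcripts of 17.1 to 41.7% GC) the median log2 fold change was -0.88, with 684 of 1112 genes called lower and 9 higher. In the GC-richest decile (57.6 to 79.8%) it was 0.38, with 12 genes called lower and 324 higher. Across genes, fold change and GC content had a Spearman rho of 0.53, given as a description since genes are not independent. Within 3 classes of transcript length the lowest and highest GC deciles had medians of -0.60 and 0.37 (short), -0.77 and 0.37 (middle) and -1.03 and 0.35 (long). The contrasts of 6 Gy at 6 h and of 15 Gy at 24 h with the same control libraries had rho of -0.03 and 0.02. Whether the gradient arose in the tissue or in making the libraries was not tested. For this reason most results below are given in both forms, as counted and from a second edgeR fit in which each library's own curve of log2 count on GC content was taken out. The second fit was added after the gradient was seen.

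**Figure D1:**
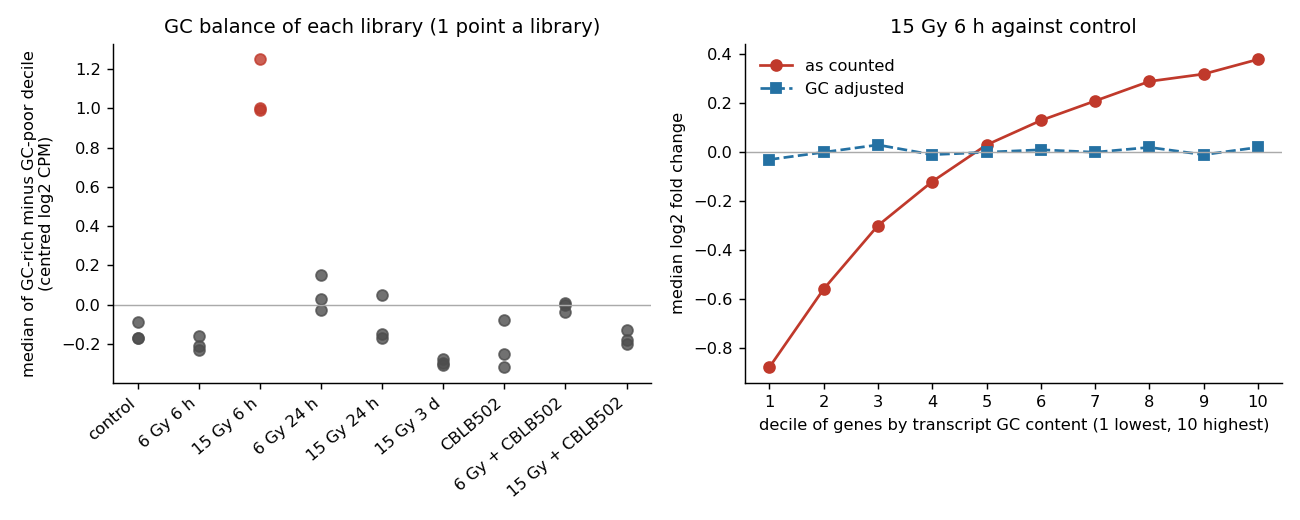
Left, the GC balance of each of the 27 libraries (median centred log2 CPM of the GC-richest decile of genes minus that of the GC-poorest, 1 point a library). Right, the median log2 fold change of 15 Gy at 6 h over control in each decile of genes by GC content, as counted and GC adjusted. The libraries of 15 Gy at 6 h lie between 0.99 and 1.25 and all others between -0.32 and 0.15. The curve as counted rises from -0.88 to 0.38, and the adjusted one stays within 0.03 of 0.

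As counted, 1352 genes (12.2% of 11118 tested) were called higher and 1868 (16.8%) lower, and for 4407 genes (39.6%) the 3 libraries of one group all lay above the 3 of the other. After GC adjustment 709 genes (6.38% of 11112) were called higher and 800 (7.20%) lower. Of the calls, 365 rises and 672 falls were shared by both fits, and 17 genes were called in opposite directions. With the 6 compared libraries fitted alone, which leaves fewer libraries to estimate the spread, 383 genes were higher and 1149 lower as counted, and 26 were called after GC adjustment, 8 higher and 18 lower. Among those 26 were the p53 targets Ccng1, Phlda3 and Aen, the class II genes H2-Aa, H2-Ab1, H2-DMa and H2-DMb1, the spermatid genes Prm2, Ldhc, Tnp1 and Tnp2, and Abca1, Nfkbiz, Zc3h12a, Neat1, Tm4sf4 and Hsd3b3. Some of these were chosen for mention after their values were seen. Shares of a list are read below against these background shares.

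Some targets of p53 rose and others did not. Of 47 listed genes 37 passed the filter on low values, and of these 15 rose and 3 fell as counted, with a median log2 fold change of 0.41 against 0.02 for all genes tested. After GC adjustment 13 rose and 1 fell, with a median of 0.36, and all 13 had risen as counted. Members that pass the filter only through their irradiated libraries had to differ, so the list is read gene by gene.

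The promoters of 4 of these genes are shown because they carry a match to the half-site that p53 binds. Promoter windows of 300 bases around the start site were taken from RefSeq on GRCm38.p6, and 39 of the 47 listed genes matched by symbol. The half-site (10 letters, both strands) was found in 14 of the 39 (35.9%) and in 9.55% of all 27025 genes with a window. The match is in capitals, and its offset is that of its first base from the start site.
Ccng1 promoter (chr11:40755237-40755536, - strand): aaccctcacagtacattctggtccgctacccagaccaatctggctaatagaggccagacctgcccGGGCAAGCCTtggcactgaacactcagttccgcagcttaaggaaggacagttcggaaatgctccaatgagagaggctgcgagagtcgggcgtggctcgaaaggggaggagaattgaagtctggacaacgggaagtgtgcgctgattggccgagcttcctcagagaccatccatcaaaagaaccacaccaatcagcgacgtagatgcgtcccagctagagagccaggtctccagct
Aen promoter (chr7:78895808-78896107, + strand): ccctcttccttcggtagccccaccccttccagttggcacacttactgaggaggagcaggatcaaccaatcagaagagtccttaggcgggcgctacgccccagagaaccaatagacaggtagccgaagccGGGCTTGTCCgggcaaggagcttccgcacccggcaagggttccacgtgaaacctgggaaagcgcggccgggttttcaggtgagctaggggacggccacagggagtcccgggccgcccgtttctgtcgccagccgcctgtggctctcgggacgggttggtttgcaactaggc
Bax promoter (chr7:45466849-45467148, - strand): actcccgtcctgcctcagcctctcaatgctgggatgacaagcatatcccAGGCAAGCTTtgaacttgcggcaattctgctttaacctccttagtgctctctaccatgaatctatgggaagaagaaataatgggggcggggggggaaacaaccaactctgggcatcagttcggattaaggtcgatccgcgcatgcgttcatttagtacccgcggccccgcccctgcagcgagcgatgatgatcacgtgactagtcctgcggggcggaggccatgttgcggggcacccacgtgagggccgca
Cdkn1a promoter (chr17:29090729-29091028, + strand): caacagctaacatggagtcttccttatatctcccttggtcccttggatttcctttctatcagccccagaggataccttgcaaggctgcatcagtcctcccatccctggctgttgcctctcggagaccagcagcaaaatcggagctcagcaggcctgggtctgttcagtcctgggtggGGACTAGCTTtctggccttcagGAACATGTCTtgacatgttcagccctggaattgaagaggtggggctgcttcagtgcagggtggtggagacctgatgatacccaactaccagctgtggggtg
The match lies at -185 in Ccng1, -121 in Aen and -201 in Bax. The window of Cdkn1a is that of its upstream start site and holds a match at -73 and another at -51, while its other window (chr17:29093519-29093818) holds none. Of the 12 listed genes with a window that rose as counted, 6 had a match, as had 2 of the 3 that fell, Mdm2 and Gadd45a. No match lay in the window of Phlda3, which says only that these letters are not in those 300 bases.

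Targets of p53 in survival signalling, feedback and the stress checkpoint rose in both fits. Ccng1 (cyclin G1, chromosome 11, 40748552 to 40755311), which recruits a phosphatase to the p53 inhibitor Mdm2, stood at 19.5, 21.7 and 17.0 CPM in control and 60.0, 59.6 and 37.2 CPM at 15 Gy (1.43 ± 0.15, edgeR adjusted p = 9.22e-07; GC adjusted 2.19 ± 0.14, adjusted p = 3.77e-09). Every irradiated library lay above every control library, and as a GC-poor transcript (40.8% GC) it gained from the adjustment. Phlda3, which blocks the membrane docking of Akt, stood at 0, 0.0532 and 0 CPM in control and at 4.54, 3.80 and 3.98 CPM after irradiation. It was close to silent before irradiation and at a like level in all 3 irradiated libraries (edgeR adjusted p = 9.62e-07; GC adjusted 1.14e-05). Plk2, a kinase of the stress checkpoint, went from 4.28, 3.13 and 1.81 to 15.1, 16.8 and 11.4 CPM (2.23 ± 0.29, adjusted p = 7.85e-06; GC adjusted 2.27 ± 0.30).

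Of the p53 targets that act on cell death, some rose and others did not pass the test. The nuclease gene Aen rose from 1.13, 0.984 and 1.60 CPM to 10.4, 8.60 and 5.51 CPM (2.72 ± 0.34, edgeR adjusted p = 5.34e-06; GC adjusted 2.56 ± 0.33). Bax, the pore former of the mitochondrial outer membrane, rose from 13.6, 10.6 and 11.2 CPM to 24.5, 26.7 and 19.1 CPM (0.99 ± 0.18, adjusted p = 0.00033; GC adjusted 0.63 ± 0.16, adjusted p = 0.0105). The death receptor gene Tnfrsf10b rose by 1.36 ± 0.22 (GC adjusted 1.33 ± 0.22). The groups did not overlap for any of these 3. Bbc3, which encodes Puma, stood at 1.15, 0.785 and 0.785 CPM against 2.48, 0.734 and 1.87 CPM and was not called (0.90 ± 0.40, adjusted p = 0.0969, and GC adjusted 0.58 ± 0.40, adjusted p = 0.382). Pmaip1, which encodes Noxa, had overlapping libraries, 97.7 to 109.9 CPM against 77.8 to 121 CPM (-0.02 ± 0.41, adjusted p = 0.979, and GC adjusted 0.63 ± 0.41, adjusted p = 0.349). Without the second irradiated library Bbc3 was called higher (1.26, edgeR adjusted p = 0.0188).

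Stress and metabolic targets of p53 rose as well. Sesn2, a brake on mTORC1, rose from 9.95, 10.2 and 8.34 CPM to 20.4, 24.0 and 20.5 CPM (1.19 ± 0.17; GC adjusted 0.83 ± 0.17). Gdf15, a secreted stress hormone, stood at 0.0919, 0.160 and 0.163 CPM and rose to 5.41, 2.07 and 1.39 CPM (4.40 ± 0.62, edgeR adjusted p = 2.19e-05; GC adjusted 4.02 ± 0.61). All 3 irradiated libraries were above the controls, though they differed among themselves. Zmat3, an RNA-binding protein, rose by 0.91 ± 0.16 (GC adjusted 0.99 ± 0.16), and the low-level genes Psrc1 (1.69, 1.94 and 1.32 CPM against 0.0613, 0 and 0) and Ddit4l (2.45, 1.15 and 0.845 CPM against 0, 0.106 and 0.237) were called in both fits. Rps27l, a ribosomal protein paralog known as a p53 target, rose by 0.47 ± 0.13 as counted and by 1.03 ± 0.14 after GC adjustment. Without the second irradiated library its rise as counted was 0.31 (edgeR adjusted p = 0.0875).

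The best-known feedback and arrest genes did not follow. Cdkn1a, which encodes the cell-cycle inhibitor p21, stood at 404, 404 and 423 CPM in control and at 407, 627 and 604 CPM at 15 Gy (0.41 ± 0.18, edgeR adjusted p = 0.0929; GC adjusted 0.15 ± 0.18, adjusted p = 0.659). The first irradiated library lay within the control range and the other two above it. Mdm2, the ubiquitin ligase of p53, fell as counted, from 42.5, 47.8 and 62.1 CPM to 37.1, 42.7 and 28.4 CPM (-0.49 ± 0.17, adjusted p = 0.0375), with overlapping libraries and no call after GC adjustment (-0.26 ± 0.18, adjusted p = 0.37). Gadd45a, a stress sensor, fell in both fits, from 55.4, 69.0 and 66.4 CPM to 38.6, 44.3 and 38.5 CPM (-0.65 ± 0.21, adjusted p = 0.0259; GC adjusted -0.73 ± 0.22, adjusted p = 0.0294). Ccng2, the cyclin G paralog, fell as counted (-0.91 ± 0.18) but was not called after adjustment (-0.30 ± 0.19). Without the first irradiated library Cdkn1a was called higher (0.59, edgeR adjusted p = 0.0226). The falls of Mdm2 and Gadd45a were not called without irradiated replicate 1 or 3 or control replicate 2 or 3, with adjusted p up to 0.197 for Mdm2 and 0.0813 for Gadd45a.

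**Figure D2:**
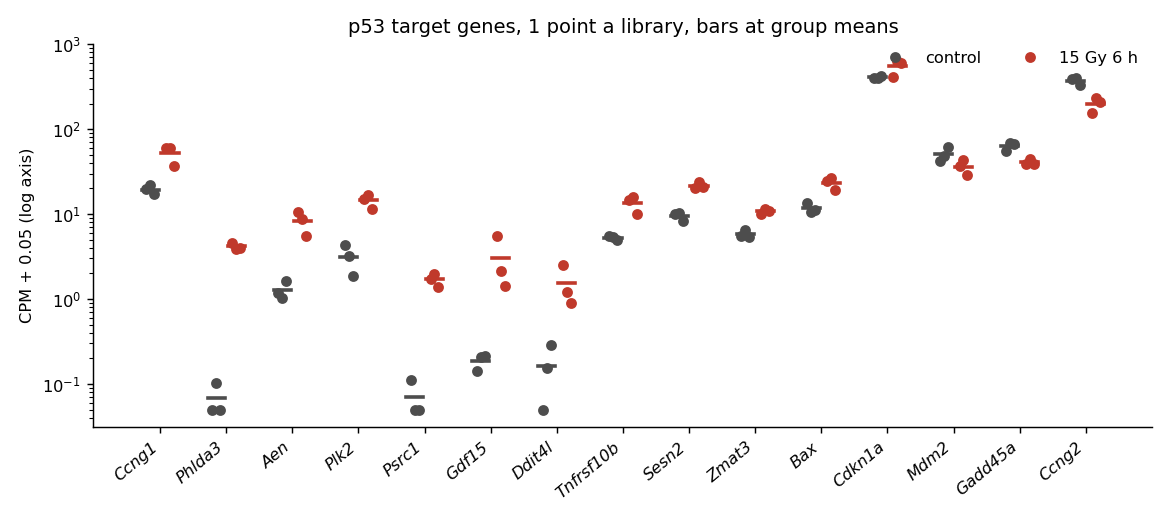
CPM plus 0.05 on a log axis for 15 targets of p53 in the 3 control and the 3 irradiated libraries, 1 point a library with bars at group means. From Ccng1 to Bax the irradiated libraries all lie above the controls. Cdkn1a and Mdm2 overlap, and Gadd45a and Ccng2 lie below.

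The inhibitors of apoptosis Xiap, Birc2 and Birc3 fell in both fits, in a list whose share of calls was near that of all genes. Xiap, a caspase inhibitor, fell from 111, 120.1 and 123 CPM to 43.7, 44.6 and 30.9 CPM (-1.57 ± 0.13, edgeR adjusted p = 6.27e-08) and by less after GC adjustment (-0.57 ± 0.10, adjusted p = 0.000639). Birc2, a ubiquitin ligase of the TNF receptor pathway, fell from between 47.7 and 50.9 CPM to 21.7, 21.1 and 14.7 CPM (-1.37 ± 0.16; GC adjusted -0.80 ± 0.15), and its paralog Birc3 fell by 1.10 ± 0.15 on the log2 scale (GC adjusted -0.92 ± 0.15). In the apoptosis list of 33 tested genes, 5 rose and 5 fell as counted (median -0.05), which is 30.3% called against 28.96% of all genes tested. After adjustment 4 rose and 3 fell (median -0.01), and the 3 falls were those of Xiap, Birc2 and Birc3.

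Genes of DNA repair, of the cell cycle and of stem cells showed little that both fits shared. Of 23 tested repair and damage signalling genes 4 rose and 3 fell as counted, and after GC adjustment none rose and 2 fell. These were Nbn, a subunit of the complex that finds double-strand breaks (4.95, 6.30 and 4.78 CPM against 2.32, 1.84 and 2.04 CPM; -1.37 ± 0.26, GC adjusted -0.93 ± 0.24), and Parp2 (-0.61 ± 0.17, GC adjusted -0.51 ± 0.16). Of 14 tested DNA replication genes 1 rose and 2 fell as counted (21.4% called against 28.96% of all genes tested). After adjustment 2 rose, Rrm2 and Pcna, and 0 fell. Of 10 tested mitosis genes 1 rose and 0 fell in each fit, and 0 rose in both. Rrm2, the small subunit of ribonucleotide reductase, rose from 0.552, 0.758 and 1.35 CPM to 3.04, 3.00 and 7.04 CPM (2.30 ± 0.78, edgeR adjusted p = 0.0319; GC adjusted 2.56 ± 0.78, adjusted p = 0.0331). Pcna, the sliding clamp of replication, was called after adjustment only (0.47 ± 0.20, adjusted p = 0.0909; GC adjusted 0.80 ± 0.20, adjusted p = 0.0104). As counted, Parp2 was not called without control replicate 2 (adjusted p = 0.0556), nor Rrm2 without irradiated replicate 3 (1.77, 0.132), control replicate 1 (0.107) or control replicate 2 (0.0945).

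The proliferation marker Mki67 ran from 3.06 to 9.01 CPM in control and from 1.302 to 4.63 CPM at 15 Gy and was not called (-1.06 ± 0.59, edgeR adjusted p = 0.191, and GC adjusted -0.88 ± 0.58, adjusted p = 0.353). Of 15 tested stem cell and Wnt target genes 1 fell as counted and none was called after adjustment. Crypt stem cell genes were at low levels in these samples: Lgr5 stood at 0.230, 0.106 and 0.341 CPM in control and 0.104, 0.147 and 0.236 CPM at 15 Gy, below the filter, and Olfm4 at 1.76, 0.452 and 6.58 CPM against 0.727, 0.774 and 0 CPM. Lgr5 was not tested and the Olfm4 libraries overlapped, so these 2 genes could not show whether stem cell RNA was lost. Clu, a marker of the reviving epithelium that follows crypt loss, stood at 6.34, 3.30 and 2.70 CPM against 5.31, 43.4 and 6.65 CPM. Its call as counted (2.17 ± 0.72, adjusted p = 0.0277) went with the second irradiated library (0.54 without it, adjusted p = 0.555) and was also lost without control replicate 2 (0.0901) or 3 (0.0931) and after adjustment (0.0834).

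The MHC class II system, which loads peptides for CD4+ T cells and is known in mouse enterocytes as well as in immune cells, stood lower at 15 Gy in most of its genes. H2-Aa (chromosome 17), the alpha chain of I-A, went from 1138, 1163 and 1207 CPM to 355, 451 and 404 CPM, H2-Eb1 from 268, 267 and 275 CPM to 155, 112 and 102 CPM, and Ciita, the transactivator of the class, from 7.46, 15.4 and 8.75 CPM to 2.10, 3.38 and 3.67 CPM. The control libraries of H2-Aa and H2-Eb1 lay within a few percent of each other, and no irradiated library reached them. With all 27 libraries sharing an estimate of the spread, the peptide editor subunit H2-DMb1 was the only gene of the 10 tested that fell (88.0, 92.7 and 107 CPM against 34.7, 34.9 and 30.7 CPM; -1.52 ± 0.54, edgeR adjusted p = 0.0384; GC adjusted -1.76 ± 0.54, adjusted p = 0.034). H2-Aa had -1.54 ± 0.62 with an adjusted p of 0.0694, H2-DMa -0.98 ± 0.43 with 0.0912, H2-Eb1 -1.13 ± 0.51 with 0.0984 and Ciita -1.79 ± 0.71 with 0.0637. After GC adjustment these 4 were not called either, at -1.34 (adjusted p = 0.17), -1.27 (0.0524), -1.30 (0.0967) and -2.08 (0.0602). The call of H2-DMb1 was lost whichever of the 6 libraries was left out (-1.43 to -1.58, adjusted p of 0.0589 to 0.105).

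When the 6 libraries of the comparison were fitted alone as counted, H2-Aa (adjusted p = 0.00898), H2-DMb1 (0.00898), H2-DMa (0.011), H2-Eb1 (0.012), H2-Ab1 (0.0189), Ciita (0.0217) and Cd74, the invariant chain (0.0458), were all called lower. The list of 10 tested genes had a median of -0.85 as counted and -1.17 after GC adjustment. Ifi30, the lysosomal thiol reductase of the same pathway, went the other way, from 191, 159 and 186 CPM to 380.2, 306 and 296 CPM (0.87 ± 0.12, edgeR adjusted p = 1.64e-05; GC adjusted 0.64 ± 0.12). Macrophage and dendritic cell markers (22 genes) summed to 37.4 to 42.2 CPM in control and 32.9 to 53.6 CPM at 15 Gy, and B and plasma cell markers (20) to 152 to 181 CPM and 169.8 to 221 CPM. Both sums overlapped between the groups. Of the macrophage list, Cd14, the co-receptor for bacterial lipopolysaccharide, rose from 4.35, 6.52 and 5.50 CPM to 15.2, 13.6 and 16.4 CPM (1.46 ± 0.18, adjusted p = 3.8e-06; GC adjusted 1.27 ± 0.17).

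Of 50 tested interferon-stimulated genes 2 rose and 11 fell as counted, and none rose and 4 fell after GC adjustment (median -0.38, adjusted -0.22). Rises were below the 12.2 and 6.38% of all genes. The share of falls was above the 16.8% of all genes as counted, and the 4 adjusted falls were near the background of 7.20%. The 4 were the guanylate-binding proteins Gbp8 and Gbp9, the antiviral GTPase Mx1 (9.46, 8.18 and 18.9 CPM against 3.89, 4.79 and 3.87 CPM; -1.54 ± 0.31, GC adjusted -1.43 ± 0.32) and Oas1b. Oas1b was not called as counted without irradiated replicate 2 (edgeR adjusted p = 0.0725) or control replicate 3 (-0.63, 0.187). Of 22 NF-kB subunit and feedback genes 3 rose and 5 fell as counted, and 3 fell after adjustment. The nuclear inhibitor gene Nfkbiz fell from 47.8, 60.5 and 42.5 CPM to 20.6, 19.6 and 19.0 CPM (-1.35 ± 0.23, edgeR adjusted p = 0.000131; GC adjusted -1.44 ± 0.22, adjusted p = 0.000283), and Chuk, the IKK-alpha kinase, by 1.20 ± 0.12 on the log2 scale (GC adjusted -0.47 ± 0.11). Zc3h12a, the RNase that degrades inflammatory transcripts, stood at 36.1, 39.0 and 31.5 CPM against 11.9, 17.5 and 14.8 CPM and was among the 26 genes called with the 6 libraries alone after GC adjustment (it was chosen after its values were seen).

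Of 20 tested antimicrobial defence genes of the epithelium 0 rose and 2 fell as counted, and 1 fell after GC adjustment. The share called as counted, 10.00%, was below the 28.96% of all genes tested. The 2 falls were those of an oxidase pair, with none in the lectins. Duox2, the epithelial NADPH oxidase that makes hydrogen peroxide, went from 281, 235 and 91.1 CPM to 10.2, 80.5 and 5.63 CPM (-2.65 ± 0.99, edgeR adjusted p = 0.0488; GC adjusted -2.90 ± 1.00, adjusted p = 0.0586). Its maturation factor Duoxa2, the next gene on chromosome 2, went from 67.2, 62.0 and 18.9 CPM to 0.714, 14.0 and 1.58 CPM (-3.18 ± 1.08, adjusted p = 0.0311; GC adjusted -3.43 ± 1.09, adjusted p = 0.0405). In both genes the second irradiated library was the closest to control. Neither was called with the replicate numbers as a block, nor without irradiated replicate 1 or 3 or control replicate 1 or 2 (adjusted p of 0.0936 to 0.157 for Duox2 and 0.0678 to 0.114 for Duoxa2). The lectins Reg3b and Reg3g overlapped between groups, with 5232 to 11357 CPM against 2272 to 9540.4 CPM for Reg3b (-0.58 ± 0.43, adjusted p = 0.338, and GC adjusted -0.35 ± 0.43, 0.661) and 3032 to 7369.7 CPM against 1201 to 4898 CPM for Reg3g (-1.02 ± 0.45, adjusted p = 0.0973, and GC adjusted -0.38 ± 0.45, 0.643). Without the second irradiated library Reg3g was called lower (-1.80, adjusted p = 0.00671). Fut2, the fucosyltransferase of the gut surface, had 2.31, 1.86 and 1.45 CPM against 1.38, 3.16 and 0.845 CPM, and the flagellin receptor Tlr5 stayed at or below 0.322 CPM in all 6 libraries.

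**Figure D3:**
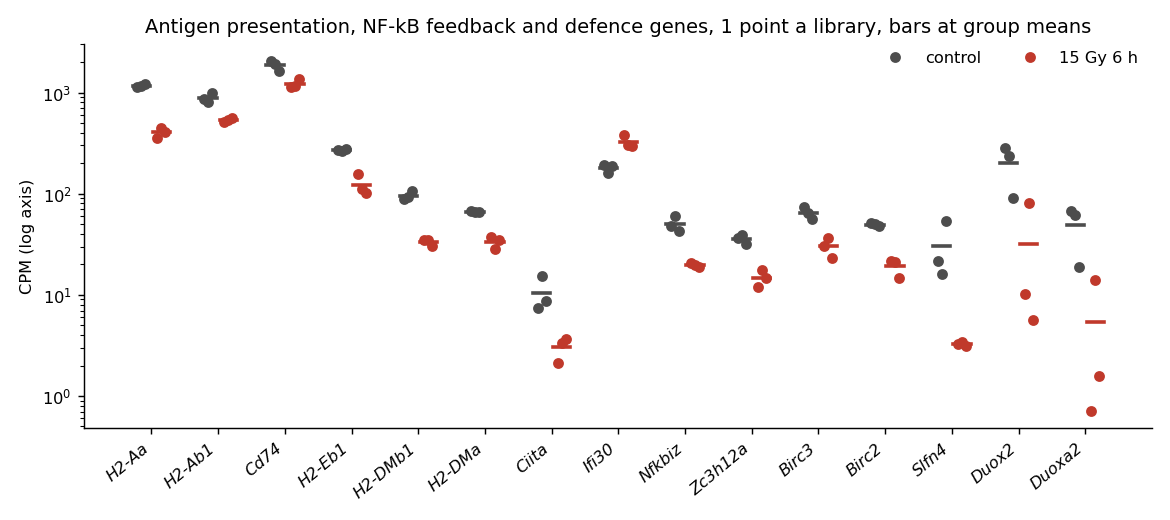
CPM on a log axis for 15 genes of antigen presentation, NF-kB feedback and epithelial defence, 1 point a library with bars at group means. The control libraries of H2-Aa, H2-Eb1 and H2-DMa lie close together and all irradiated libraries lie below them, while Ifi30 lies above. Duox2 and Duoxa2 spread widely within each group.

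Nuclear genes of the respiratory chain rose more often than those of any other list named here. Of 75 tested subunit genes 44 rose and 1 fell as counted, with a median of 0.43, and 29 rose and none fell after GC adjustment, with a median of 0.34. Only 18 genes rose in both fits. The background shares for a rise were 12.2 and 6.38%. The changes were small at the median. Ndufa7, an accessory subunit of complex I, stood at 44.7, 42.3 and 46.0 CPM in control and 84.1, 66.7 and 76.1 CPM at 15 Gy (0.77 ± 0.10, edgeR adjusted p = 9.72e-06; GC adjusted 0.71 ± 0.10, adjusted p = 0.000123). Cox6a1 of complex IV stood at 567, 479 and 545 CPM against 1033, 910.3 and 936 CPM (0.86 ± 0.12; GC adjusted 0.49 ± 0.11), and Ndufb11 at 50.05, 44.9 and 59.3 CPM against 105, 82.3 and 84.2 CPM (0.82 ± 0.12; GC adjusted 0.62 ± 0.11). The groups did not overlap for these 3 genes.

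Mitochondrially encoded subunits of the same complexes moved the other way as counted. Of 13 genes 8 fell, with a median of -1.18. The library with the lowest share was the third irradiated one: mt-Nd4 stood at 8537, 8734 and 13283 CPM in control and 4552, 3388 and 1958 CPM at 15 Gy (-1.63 ± 0.46, edgeR adjusted p = 0.0114), and mt-Co1 at 50592, 53969.7 and 73603 CPM against 33704, 26621 and 18500.4 CPM (-1.18 ± 0.41, adjusted p = 0.0374). Without irradiated replicate 3 mt-Nd4 had an adjusted p of 0.063, and mt-Co1 was not called without irradiated replicate 2 or 3 or control replicate 2 or 3 (0.0586 to 0.143). Mitochondrial transcripts are GC-poor (median 37.1%), and none of the 13 was called after adjustment (median -0.35; mt-Nd4 -0.60 ± 0.41, mt-Co1 -0.35 ± 0.41). Cytosolic ribosomal protein genes had 4 of 80 called higher in each fit and none lower.

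**Figure D4:**
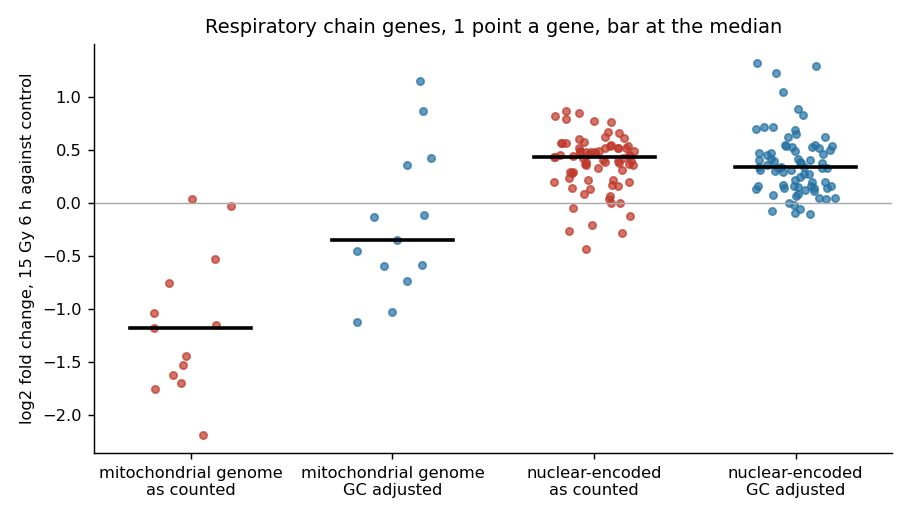
Log2 fold change of 15 Gy at 6 h over control for the 13 mitochondrially encoded and the 75 nuclear-encoded respiratory chain genes, as counted and GC adjusted, 1 point a gene with a bar at the median. The mitochondrial median moves from -1.18 to -0.35 on adjustment and the nuclear one from 0.43 to 0.34.

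Of 32 tested brush-border genes, the digestive enzymes of the enterocyte, 6 rose and 3 fell as counted, and 2 rose and none fell after GC adjustment. The medians were 0.02 and -0.02, and the adjusted share of rises was near that of all genes. Trehalase (Treh) rose from 786, 829 and 813 CPM to 1467, 1344 and 1814 CPM (0.93 ± 0.17, edgeR adjusted p = 0.000397; GC adjusted 0.69 ± 0.17, adjusted p = 0.0117). Lactase (Lct) rose as counted, from 2782, 3110.5 and 2349 CPM to 5019, 4271 and 3673 CPM (0.65 ± 0.21; GC adjusted 0.44 ± 0.21, adjusted p = 0.177). That call was lost without irradiated replicate 1 (adjusted p = 0.094) or control replicate 1 (0.0506) or 3 (0.0863). Sucrase-isomaltase (Sis, 40.5% GC) fell as counted, from 6348, 5528 and 5161 CPM to 2726, 2510.3 and 1195 CPM (-1.41 ± 0.34, adjusted p = 0.00349), and was not called after adjustment (-0.64 ± 0.31, adjusted p = 0.194). The peptidase gene Dpp4 did the same (-1.06 ± 0.24; GC adjusted -0.41 ± 0.24).

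Genes of retinoid handling and of the proximal intestine were among those that rose. Of 17 tested carotenoid and retinoid genes 8 rose as counted (median 0.76) and 5 after adjustment (median 0.57), with none lower in either fit. Isx, the transcription factor that restrains carotenoid uptake, rose from 40.5, 44.3 and 69.2 CPM to 82.9, 98.8 and 114 CPM (0.94 ± 0.17, edgeR adjusted p = 0.000309; GC adjusted 0.81 ± 0.17). The retinol dehydrogenases Rdh10 (0.78 ± 0.17; GC adjusted 0.95 ± 0.16), Rdh11 (0.89 ± 0.23; 1.11 ± 0.22) and Rdh7 (1.23 ± 0.32; 1.15 ± 0.32) and the alcohol dehydrogenase Adh1 (1.03 ± 0.27; 0.89 ± 0.27) rose in both fits. Without irradiated replicate 1 Rdh7 had an edgeR adjusted p of 0.0537 as counted.

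Of 15 proximal genes 6 rose as counted and 2 after adjustment, and their summed level went from 45654 to 58246 CPM in control to 75359 to 96223 CPM at 15 Gy, most of it apolipoprotein A-IV (Apoa4, 0.80 ± 0.21; GC adjusted 0.45 ± 0.21, edgeR adjusted p = 0.164). Slc46a1, the intestinal folate carrier, rose from 274, 355 and 309 CPM to 1082, 704 and 1417 CPM (1.77 ± 0.44; GC adjusted 1.42 ± 0.44, adjusted p = 0.0353). Pdx1, a transcription factor of the duodenum, stood at 0.460, 0.452 and 1.41 CPM in control and 5.41, 2.54 and 20.7 CPM at 15 Gy (3.63 ± 1.29, adjusted p = 0.0393; GC adjusted 3.30 ± 1.28, adjusted p = 0.0918). The irradiated libraries were all above control for Slc46a1 and Pdx1. The call of Pdx1 was lost without irradiated replicate 3 (2.36, adjusted p = 0.201) or any control library (0.0514 to 0.12). Since the labels do not say which stretch was sampled, the part of position along the gut in these values was not tested. Ileal genes (14) summed to 4198 to 4975 CPM in control and 6312 to 8361 CPM at 15 Gy, but of the 10 tested 3 rose and 1 fell as counted, with a median of -0.30 (2 and 1 after adjustment, median -0.20). Nr0b2, the bile acid sensor's repressor SHP, had no count in any control library and stood at 2.71, 0.841 and 6.65 CPM at 15 Gy (edgeR adjusted p = 0.000187; GC adjusted 0.00104).

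Detoxifying enzymes were called in both directions as counted. Of 46 tested phase II genes 13 rose and 5 fell as counted, and 7 rose and none fell after GC adjustment (median 0.28, adjusted 0.38). Ephx1, the microsomal epoxide hydrolase, rose from 2.19, 3.31 and 7.47 CPM to 36.5, 26.7 and 33.8 CPM (2.90 ± 0.55, edgeR adjusted p = 0.000436; GC adjusted 2.69 ± 0.54, adjusted p = 0.00216). Gstk1, a mitochondrial and peroxisomal glutathione transferase, rose from 34.4, 40.9 and 62.2 CPM to 126, 96.5 and 113 CPM (1.29 ± 0.29; GC adjusted 1.18 ± 0.29), and the carboxylesterase Ces2e from 2166, 1887 and 1824 CPM to 3379, 2865 and 3041 CPM (0.66 ± 0.13; GC adjusted 0.73 ± 0.13). Falls such as those of Nat2 (-1.15 ± 0.13; GC adjusted -0.26 ± 0.14) and Sult1b1 (-0.65 ± 0.12; GC adjusted 0.35 ± 0.13) were not called after adjustment. Of 33 oxidative stress and NRF2 target genes 8 rose and 1 fell, and 5 rose after adjustment. These were Prdx2, Cbr3 and Sod2 and 2 enzymes of the pentose phosphate pathway, Tkt (310.1, 295 and 336 CPM against 528, 605 and 616 CPM; 0.89 ± 0.11, GC adjusted 0.64 ± 0.11) and Pgd (0.50 ± 0.13; GC adjusted 0.51 ± 0.13).

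Some genes of sterol and fatty acid handling changed. Abca1, the exporter of cholesterol to high-density lipoprotein, fell from 179, 172 and 145 CPM to 26.2, 46.2 and 34.0 CPM (-2.22 ± 0.43, edgeR adjusted p = 0.000519; GC adjusted -2.13 ± 0.43, adjusted p = 0.00231). It was among the 26 genes called with the 6 libraries alone after GC adjustment. Srebf1, the regulator of fatty acid synthesis, rose from 48.9, 40.5 and 53.5 CPM to 117, 86.5 and 117 CPM (1.17 ± 0.21; GC adjusted 0.80 ± 0.21), and mevalonate kinase (Mvk) from 9.52, 7.43 and 10.1 CPM to 33.5, 20.6 and 22.6 CPM (1.50 ± 0.28; GC adjusted 1.18 ± 0.28). Of 31 tested synthesis genes 3 rose and 1 fell as counted, and 4 rose after adjustment, with medians of 0.55 and 0.71. The share called as counted, 12.9%, was below the 28.96% of all genes tested.

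Several tuft cell genes rose, 2 of the leukotriene pathway among them. Of 21 tested genes 9 rose as counted (median 0.72), and 5 rose and 1 fell after GC adjustment (median 0.69). Alox5ap, the activator of 5-lipoxygenase, rose from 2.83, 1.85 and 2.86 CPM to 5.98, 6.13 and 6.87 CPM (1.33 ± 0.22, edgeR adjusted p = 0.000117; GC adjusted 1.14 ± 0.21), and Ltc4s, leukotriene C4 synthase, from 3.69, 3.99 and 6.07 CPM to 14.7, 10.8 and 10.2 CPM (1.37 ± 0.31; GC adjusted 1.00 ± 0.31). Avil, an actin bundler of the tuft, rose from 7.86, 6.94 and 7.82 CPM to 14.4, 17.9 and 17.4 CPM (1.13 ± 0.23; GC adjusted 0.85 ± 0.22). The 36 genes of the list summed to 403 to 487 CPM in control and 433 to 609.7 CPM at 15 Gy, which overlapped. Enteroendocrine genes had 2 of 16 called higher as counted and 1 after adjustment. Goblet cell genes had 1 of 24 higher and 1 lower as counted, and 2 higher and 1 lower after adjustment. Paneth and lower crypt genes had 2 of 22 higher as counted, and none was called after adjustment. T cell and intraepithelial lymphocyte genes had 1 of 18 called lower, Ptprc (-1.42 ± 0.35), and none after adjustment.

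Some chaperone genes and the nuclear RNA Neat1 fell. Of 25 tested cytosolic chaperone genes 7 fell and none rose as counted, which is 28.00% lower against 16.8% of all genes. After adjustment 2 fell and 1 rose, and that share of falls was near the 7.20% of all genes. Hsp90aa1, the inducible HSP90, fell from 33.9, 36.6 and 59.2 CPM to 13.7, 15.4 and 15.1 CPM (-1.55 ± 0.29, edgeR adjusted p = 0.000423; GC adjusted -1.04 ± 0.29, adjusted p = 0.02). Neat1, the long noncoding RNA that builds nuclear paraspeckles, fell from 574, 605 and 1078 CPM to 172, 188 and 155 CPM (-2.13 ± 0.30, adjusted p = 2.29e-05; GC adjusted -2.02 ± 0.31, adjusted p = 0.000267). All irradiated libraries were far below control, and the GC adjustment took off little.

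The largest changes among called genes without overlap and above the FPKM minimum were chosen by rule, 12 in each direction. Besides Ephx1, Slc46a1, Duox2, Duoxa2, Abca1 and Neat1, the falls included Slfn4, a Schlafen gene of myeloid cells (21.6, 16.2 and 54.2 CPM against 3.26, 3.42 and 3.12 CPM; -3.23 ± 0.61, edgeR adjusted p = 0.000422; GC adjusted -2.73 ± 0.60), Ubd, a ubiquitin-like modifier induced by cytokines (154, 167 and 110.0 CPM against 12.8, 31.8 and 34.8 CPM; -2.44 ± 0.52, GC adjusted -1.83 ± 0.52), Nlrp9b, an epithelial inflammasome sensor (-2.21 ± 0.38; GC adjusted -1.56 ± 0.39), Paxbp1 (-1.96 ± 0.32; -1.74 ± 0.32), Wsb1 (-1.88 ± 0.25; -1.37 ± 0.26) and Pof1b (-2.05 ± 0.33; -1.02 ± 0.33). Smim15 (-2.31 ± 0.61) and mt-Atp6 (-2.19 ± 0.82) were not called after adjustment.

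The rises included Tm4sf4, a tetraspanin-like membrane protein of the gut and liver (chromosome 3, 57425314 to 57441677), which stood at 179, 138 and 102 CPM in control and 449, 459 and 699 CPM at 15 Gy (1.94 ± 0.31, edgeR adjusted p = 7.67e-05; GC adjusted 2.34 ± 0.31, adjusted p = 6.46e-05). Eif4ebp3, a brake on cap-dependent translation, rose from 5.99, 4.87 and 11.04 CPM to 50.8, 35.8 and 48.8 CPM (2.63 ± 0.50; GC adjusted 2.39 ± 0.49). Ces2g (2.03 ± 0.53; GC adjusted 2.02 ± 0.52), the thiamine transporter Slc19a3 (1.79 ± 0.49; 2.18 ± 0.49), the connexin Gjb1 (1.78 ± 0.33; 1.44 ± 0.34) and the gastric protease chymosin, Cym (1.68 ± 0.37; 1.47 ± 0.38), rose in both fits. Gsta4 (1.75 ± 0.63) and the histone gene H2bc8 (2.07 ± 0.74) were not called after adjustment. Ugt1a9 shares exons with the other genes of its cluster. It stood at 225, 0.614 and 17.7 CPM in the irradiated libraries against 0.133 to 0.215 CPM, with the first far above the others. The mitochondrial transfer RNA gene mt-Tl2 stood at 1.22, 0.614 and 0.139 CPM against 0.0306 to 0.106 CPM, with the third close to the controls. Slc19a3 was not called as counted without irradiated replicate 3 (edgeR adjusted p = 0.0642) or control replicate 2 (0.0511).

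**Figure D5:**
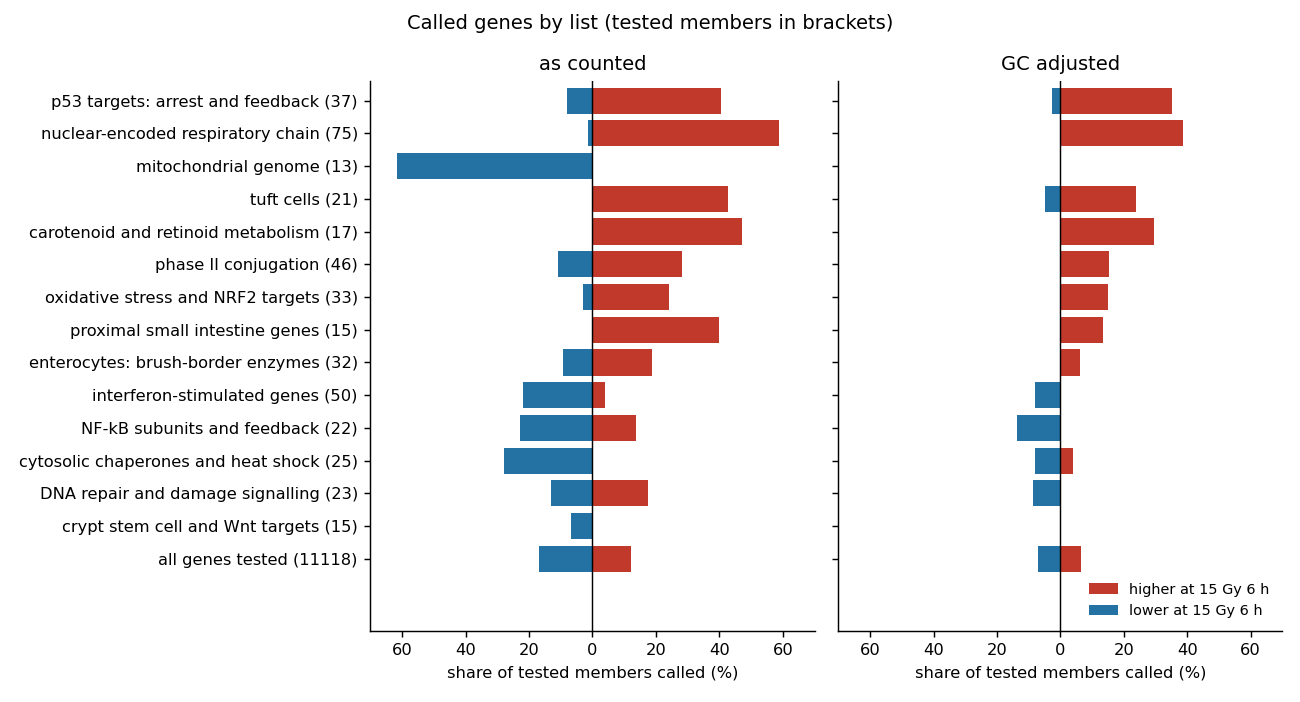
Share of the tested members of 14 gene lists, and of all genes tested, called higher (red, to the right) or lower (blue, to the left) at 15 Gy and 6 h, as counted and GC adjusted. Of the 15 p53 targets that rose as counted 13 also rose after adjustment, and of the 44 nuclear respiratory chain genes 18 did, while the mitochondrial genome loses all of its falls.

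Glucocorticoid-induced genes are known to follow stress and handling, and clock genes the hour of the day. Zbtb16, a zinc-finger gene that glucocorticoids induce, rose from 0.230, 0.106 and 0.667 CPM to 4.89, 4.46 and 4.85 CPM (3.82 ± 1.19, edgeR adjusted p = 0.0196; GC adjusted 3.59 ± 1.17, adjusted p = 0.046). Its call was lost without control replicate 1 (3.62, adjusted p = 0.0695) or 2 (3.39, 0.0791). Nr3c1, the glucocorticoid receptor, fell from 82.6, 69.1 and 58.2 CPM to 24.5, 25.4 and 24.4 CPM (-1.50 ± 0.16; GC adjusted -0.85 ± 0.16). The list as a whole was mixed, with 5 of 27 genes higher and 4 lower as counted and 1 higher and 3 lower after adjustment.

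Of 20 tested clock genes none rose and 2 fell as counted, Clock (-1.18 ± 0.21) and Nr1d2 (-1.69 ± 0.41), and none was called after adjustment. Arntl stood at 3.46, 5.25 and 3.53 CPM in control and 1.90, 2.99 and 4.41 CPM at 15 Gy (-0.40 ± 0.49, edgeR adjusted p = 0.576), and Dbp at 93.7, 92.5 and 85.0 CPM against 94.0, 53.1 and 31.5 CPM (-0.60 ± 0.92, adjusted p = 0.66). These 2 genes cycle in opposite phase, and neither was called. The E-box CACGTG, the element that the CLOCK and BMAL1 pair binds, lay in the 300-base window of 5 of 18 matched clock genes (27.8%) and of 8.09% of all genes, on either strand.

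The 3 libraries of 15 Gy at 6 h were set directly against those of 6 Gy at 6 h to ask what the dose changed at that hour. As counted 4800 genes (43.2%) were called, 2246 higher and 2554 lower at 15 Gy, and after GC adjustment 1965 (17.7%) and 1834 (16.5%). Of 32 brush-border genes 23 were higher at 15 Gy and 2 lower after adjustment, and of 33 lipid absorption genes 21 were higher and none lower. Clock genes split as well, with 14 of 20 higher and 4 lower. Against control after adjustment, 6 Gy at 6 h had 1448 of 11112 genes higher and 1717 lower (28.5% called). Of the 32 brush-border genes it had 22 lower and 1 higher. It had 23 lipid absorption genes lower and none higher, and 14 clock genes lower and 2 higher. The adjusted medians of the 3 lists against control were -0.87, -0.93 and -2.18 at 6 Gy, and -0.02, 0.13 and -0.40 at 15 Gy. Arntl stood at 24.9, 18.6 and 19.5 CPM at 6 Gy, above all 3 libraries of 15 Gy (GC adjusted -2.69, adjusted p = 0.000385), and the part of the hour of sampling in this contrast was not tested. Among p53 targets 8 of 37 were higher at 15 Gy and 3 lower after adjustment, and Ccng1 was lower at 15 Gy by 0.35 on the log2 scale (GC adjusted -0.35, adjusted p = 0.045), while Phlda3 was not called (0.42, adjusted p = 0.55).

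From 6 h to 24 h after 15 Gy, 2078 genes (18.7%) were higher at 24 h and 1497 (13.5%) lower as counted, and 1151 (10.4%) and 1123 (10.1%) after GC adjustment. Of 75 nuclear respiratory chain genes 50 were lower at 24 h after adjustment and none higher. Tm4sf4 was lower at 24 h, at 168, 177 and 92.0 CPM (GC adjusted -2.30, edgeR adjusted p = 3.61e-05), beside 179, 138 and 102 CPM in control. Neat1 was higher, at 462, 448 and 685 CPM (1.48, adjusted p = 0.00175). Of the p53 targets 3 of 37 were lower and 1 higher at 24 h, and Ccng1 (0.28, adjusted p = 0.134) and Phlda3 (-0.18, adjusted p = 0.836) were not called. Both contrasts rest on the same irradiated libraries as the comparison with control.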

How the data were processed

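RNA taken up in Trizol was sequenced on Illumina libraries, per the labels' protocols. The authors deposited whole-number counts per gene and library, used here unchanged. The deposited FPKM values served for the filter and for limma. The submitters' processing notes name Bowtie 0.12.2, HISAT2 2.0, StringTie 1.3.0 and build mm8. Strand setting and annotation were not given in the sources. Gene positions match GENCODE vM21 on GRCm38 for 94.2% of identifiers found there, so GRCm38 is used.

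The filter kept 11118 of 55401 genes, those reaching an FPKM of 1 in 3 or more libraries. Tests ran in R 4.3.3 with the quasi-likelihood method of edgeR 4.0.16 on all 27 libraries, with TMM, no block and Benjamini-Hochberg adjustment. Where no tool is named beside a gene's p-value, edgeR gave it. The GC-adjusted fit, chosen after seeing the data, used as offsets each library's robust spline (5 degrees of freedom, mean count 50 or more) of log2 count on transcript GC, known for 11112 tested genes. Alternatives were DESeq2 1.42.0, limma 3.58.1 on log2(FPKM + 1) and log2(FPKM + 0.1), median-ratio scaling, no filter, the replicate number as a block, the compared groups alone, mitochondrial genes left out, the 6 libraries of 6 Gy at 24 h left out, and each library left out. The calculations were tested on simulated data.

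Genes were named by rule: the 12 strongest rises and the 12 strongest falls of called genes whose groups did not overlap and whose higher group had a mean FPKM of 5 or more (predicted and clone-named genes, pseudogenes and immune receptor segments left out), up to 6 members of each list with the smallest adjusted p, members whose lack of a call is reported, and a fixed set of markers. Members and lists were chosen with earlier results of these data known. Replicates of a group differed by more than counting error (chi-square of 91.8 to 315 for each degree of freedom). The dispersion shared by all genes, 0.0961, equals a biological coefficient of variation of 31%. Floors from 3 counts cover counting error only.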

Additional observations from a re-analysis of the deposited data

Results flagged for a closer look

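Each gene here was called in opposite directions against control at the 2 doses sampled at 6 h, and its direct contrast of 15 Gy with 6 Gy passed the edgeR test as counted and after GC adjustment. The log2 fold change of 15 Gy over 6 Gy was 4.05 for Tm4sf4, 3.07 for Hsd3b3, 2.73 for Rdh7, 1.68 for Treh, 1.25 for Ifi30 and 1.03 for Ces2e, all higher at 15 Gy, and -5.74 for Slfn4, lower at 15 Gy. Tm4sf4 stood at 36.1, 32.7 and 28.0 CPM at 6 Gy against 449, 459 and 699 CPM at 15 Gy. Slfn4 stood at 343, 88.6 and 92.5 CPM at 6 Gy against 3.26, 3.42 and 3.12 CPM at 15 Gy. Whether the GC gradient or the hour of sampling had a part in these differences was not tested beyond the adjusted fit.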

How the results depend on the processing

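The count of 3220 called genes against control fell to 1509 after GC adjustment, 1531 with GC and length adjusted, 1532 with the compared groups alone and 2133 with limma on log2(FPKM + 1). It was 2482 to 3621 under the other settings. The GC-adjusted count fell to 26 with the compared groups alone, though 2386 genes had an unadjusted p under 0.05 there. For 24 h against 6 h the count of 3575 was 2274 after GC adjustment, 2221 with GC and length adjusted and 2024 with the compared groups alone, and its adjusted count was 577 with the compared groups alone. The cause of these moves was not tested, except that fitting the compared groups alone leaves fewer samples. Leaving out 1 library gave 2418 to 2928 calls against control, 965 to 1391 after GC adjustment (965 without irradiated replicate 3 and 989 without control replicate 2, both moves of over 1.5 times), 4150 to 4348 against 6 Gy, 2720 to 3418 for 24 h against 6 h and -8.32 to -5.29 percentage points for the mitochondrial share.

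Same-numbered libraries did not deviate together (correlations of -0.079, 0.032 and -0.127), so the numbers share only a label. With the replicate block the counts were 3146, 4732 and 3526, and 1466, 3752 and 2218 after GC adjustment. Of 119 genes named, GC adjustment ended 23 calls and added 2, GC adjustment with the compared groups alone ended 85 and added 3, the compared groups alone ended 16 and added 6, the block ended 5 and added 1, leaving out 1 library ended 27 and added 3, and median-ratio scaling changed none. Sult1b1 fell as counted and had a positive value of 0.35 after GC adjustment, 0.34 with the compared groups alone besides, 0.35 with the block besides and 0.30 with length adjusted as well, called in none of these. GC content moved with the groups in all 3 irradiated libraries, so a GC-linked change in the tissue and one from library making cannot be told apart. Genes under the filter, Lgr5 among them, were not tested.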
